A study of Mus musculus with 6 samples.

Results

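DNA methylation and Polycomb genes are described here in CD8+ T cells kept with or without an inhibitor of vitamin B6-dependent enzymes. They are the DNA methyltransferases Dnmt1, Dnmt3a and Dnmt3b, the hemimethylated-DNA binding protein gene Uhrf1 with its paralog Uhrf2, and the 4 core genes of Polycomb repressive complex 2 (PRC2), for which Ezh1, Ezh2, Eed and Suz12 were taken. The members were the rows of the gene count matrix that carry these symbols. All 9 were found among the 11922 genes of the matrix, and all 9 were among the 11759 genes that passed the filter on low counts.

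Splenic CD8+ T cells of 3 C57BL/6J mice were isolated by magnetic selection, activated with anti-CD3/anti-CD28 beads for 3 days and then expanded, in interleukin-2 at 100 units per ml throughout. Cells of each mouse received either water, the vehicle, or 0.25 mM aminooxyacetic acid (AOA), which blocks enzymes that need pyridoxal phosphate, the active form of vitamin B6. RNA was taken on day 7 after activation, which gave 3 libraries a group, numbered after the mice. The mice were not genetically altered, and the methods of the study give only a minimum age and the use of both sexes for its animals in general. Each culture held activated cells outside the animal, and the question is how the drug changed the RNA of these cells.

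DNA methylation marks cytosine in CpG pairs and is lost from the new strand at each round of DNA replication unless it is copied. Uhrf1 recognises the half-methylated sites behind the replication fork and brings in Dnmt1, the maintenance enzyme, whereas Dnmt3a and Dnmt3b can set methylation at new sites. PRC2 places methyl groups on lysine 27 of histone H3 (H3K27), through either Ezh2, known mainly from dividing cells, or Ezh1, known also from resting cells. Eed binds the mark and stimulates the enzyme, and Suz12 holds the complex together. In CD8+ T cells, Dnmt3a and Ezh2 are known for shutting off genes of naive and memory cells as effector cells form.

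Total counts ranged from 12881962 to 18934869 in the vehicle libraries and from 18696114 to 21997078 in the AOA libraries. Values below are CPM (read counts of a gene scaled to a common library size, with TMM scaling factors), and fold changes are AOA over vehicle from edgeR's quasi-likelihood test, with p-values adjusted over all 11759 genes by the Benjamini-Hochberg method and a gene called below 0.05. The first principal component, with 80.1% of the variance, separated the treatments, and the second, with 10.8%, set vehicle 2 at -44.2 apart from vehicle 1 and 3 at 21.9 and 19.4. AOA 1 differed from the other AOA libraries by gene length: in AOA 1 the median log2 level was higher by 0.33 among the shortest genes (39 to 1835 bases), and differed by -0.23 among the longest (4398 bases and more). Summed markers of CD8 T cells were at 3304 to 4213 CPM with vehicle and 4251 to 4984 CPM with AOA. Of these 6 genes, Cd8a (2.05-fold, adjusted p = 0.0013) and Cd8b1 (1.56-fold, 0.015) were called higher with AOA and Cd2 (0.656-fold, 0.011) lower, while Cd3e, Cd3d and Cd3g, at 0.831-, 0.913- and 0.806-fold, were not called. Those of CD4 T cells were at 77.4 to 132 and 21.2 to 30.5 CPM, of myeloid cells (4 of 6 listed genes in the matrix) at 55.5 to 67.5 and 4.18 to 7.82 CPM, of dendritic cells (2 of 4) at 27.4 to 48.7 and 2.12 to 2.91 CPM, of NK cells (2 of 3) at 20.1 to 114 and 3.53 to 11.6 CPM, and of B cells (4 of 5) at 12.6 to 16.6 and 22.6 to 30.7 CPM. Of the CD4 T cell genes, Cd4 (0.119-fold, adjusted p = 1.3e-04) was called lower and Foxp3 was not called, and of the B cell genes, Cd79b (2.02-fold, 0.0017) was called higher. The myeloid marker Lyz2 was at or near 0 in every library, with at most 1.16 CPM, and the 4 erythroid markers had no row. The part of these differences in the results on the 9 genes was not tested, and in bulk RNA fewer cells of a type and less RNA per cell cannot be told apart.

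Among the 9 genes, 5 were called higher with AOA, 2 were called lower and 2 were not called. Over all genes tested, 26.2% were called higher and 26.8% lower. Uhrf1 and Dnmt1, the maintenance pair, rose with Ezh2, Eed and Suz12 of PRC2, while Ezh1 and Uhrf2, the paralogs of risen genes, fell. Dnmt3a and Dnmt3b were near their vehicle levels. The vehicle and AOA values did not overlap for 7 of the 9 genes, and the same was true of 62.1% of all genes tested.

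**Figure D1:**
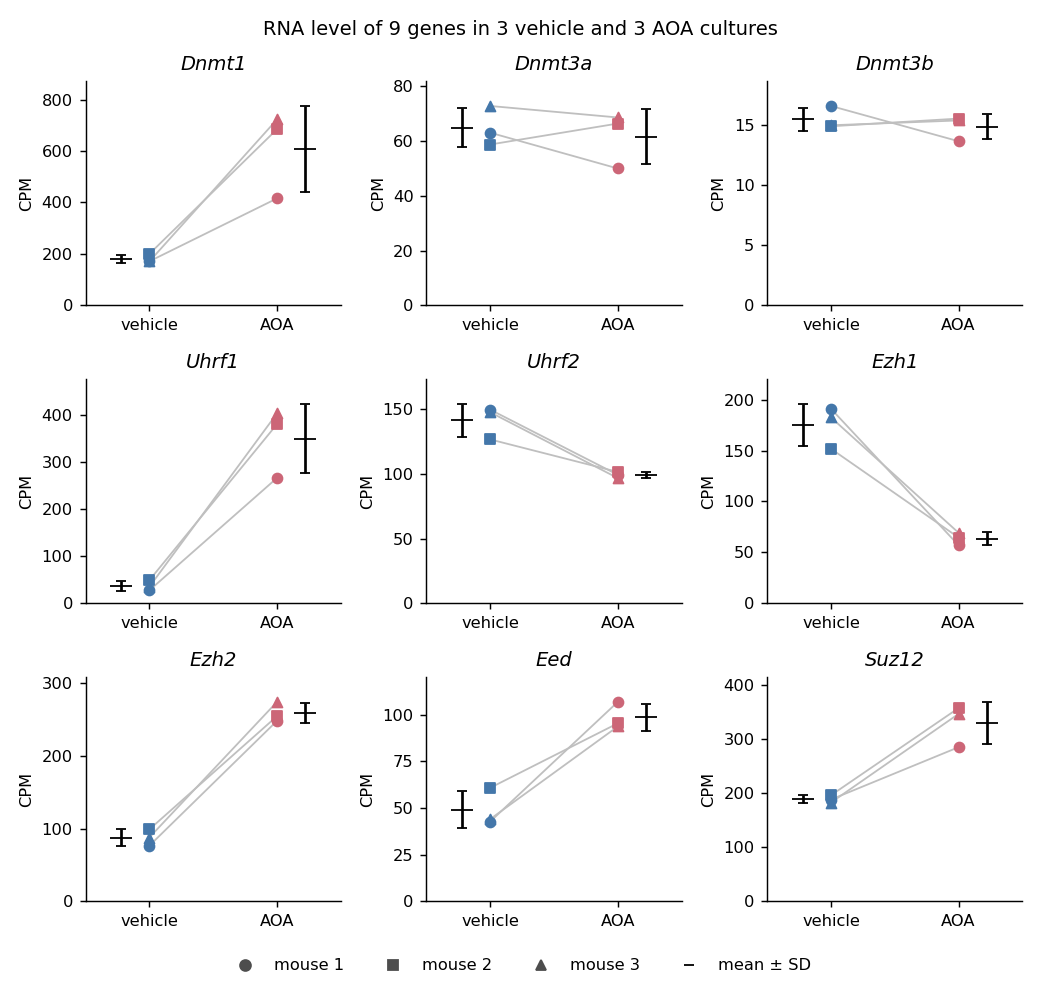
RNA level of each of the 9 genes (y axis, CPM from 0, with its own scale in each panel) in vehicle and AOA cultures (x axis). Points are single libraries, grey lines join the cultures of 1 mouse, and black bars give the mean ± SD of 3 libraries. All 3 lines climb for Dnmt1, Uhrf1, Ezh2, Eed and Suz12, all 3 descend for Uhrf2 and Ezh1, and they cross or run flat for Dnmt3a and Dnmt3b.

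Uhrf1 was at 27.7, 49.2 and 35.2 CPM in vehicle 1 to 3 and at 266, 381 and 403 CPM in AOA 1 to 3. Every AOA library was above every vehicle library, and the means were 37.4 ± 10.9 and 350.1 ± 73.4 CPM (SD, n = 3 each). The log2 fold change was 3.23 (SE 0.25, edgeR adjusted p = 2.3e-05), or 9.36-fold, with a 95% interval of 6.33-fold to 13.8-fold. Uhrf1 was higher in all 3 mice, by 3.26, 2.95 and 3.52 on the log2 scale, and 99.43% of the genes tested had a smaller log2 fold change or the same. Vehicle 2 was the highest vehicle library and AOA 1 the lowest AOA library, and both gaps, of 0.65 and -0.56 on the log2 scale, were small beside the difference between the groups.

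Dnmt1, which copies methylation onto the new strand, was at 171, 200.1 and 171 CPM with vehicle and at 416, 685 and 723 CPM with AOA. The groups did not overlap, but AOA 1 lay well below AOA 2 and AOA 3, with a log2 difference of -0.76, and Dnmt1, at 6325 bases, is among the longest genes. The means were 181 ± 16.7 and 608 ± 167 CPM (SD, n = 3 each), and the log2 fold change was 1.75 (SE 0.22, edgeR adjusted p = 2.4e-04), or 3.36-fold. Without AOA 1 the log2 fold change was 1.96. Dnmt1 was higher in all 3 mice, by 1.28, 1.77 and 2.08 on the log2 scale.

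The de novo methyltransferases were not called. Dnmt3a was at 63.1, 58.8 and 72.8 CPM with vehicle and at 50.0, 66.4 and 68.6 CPM with AOA, and the groups overlapped. Its log2 fold change was -0.07 (SE 0.16, edgeR adjusted p = 0.72), with a 95% interval from 0.741-fold to 1.22-fold. Dnmt3b was the lowest of the 9 in CPM, at 16.6, 14.9 and 15.0 with vehicle and 13.7, 15.5 and 15.4 with AOA. Its log2 fold change was -0.06 (SE 0.16, edgeR adjusted p = 0.77), with a 95% interval from 0.751-fold to 1.23-fold. Within these intervals a change of either gene was not detectable with 3 libraries a group, and the mice did not share a direction: Dnmt3a was lower in mice 1 and 3 and higher in mouse 2, and Dnmt3b was lower in mouse 1 and higher in mice 2 and 3.

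Uhrf2 moved the opposite way from Uhrf1. It was at 149.7, 127 and 148 CPM with vehicle and at 99.3, 102 and 96.8 CPM with AOA, with no overlap. The log2 fold change was -0.51 (SE 0.13, edgeR adjusted p = 0.0076), or 1.42-fold lower, and it was lower in all 3 mice. This was the smallest change among the 7 called genes, and its adjusted p reached 0.046 when vehicle 3 was left out.

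The catalytic genes of PRC2 changed in opposite directions. Ezh2 was at 76.6, 99.0 and 87.9 CPM with vehicle and at 248, 255 and 274 CPM with AOA, and the AOA libraries lay close together and far above the vehicle libraries. Its log2 fold change was 1.56 (SE 0.14, edgeR adjusted p = 4.8e-05), or 2.95-fold, with differences of 1.70, 1.36 and 1.64 in the 3 mice. Ezh1 was at 191, 152 and 182 CPM with vehicle and at 57.0, 64.6 and 69.3 CPM with AOA, so that the highest AOA library was below the lowest vehicle library. Its log2 fold change was -1.46 (SE 0.14, edgeR adjusted p = 7.4e-05), or 2.75-fold lower, with differences of -1.74, -1.23 and -1.40 in the 3 mice.

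The non-catalytic core subunits rose as well. Eed, the subunit that reads the H3K27 mark, was at 42.8, 60.9 and 44.1 CPM with vehicle and at 107, 95.5 and 93.8 CPM with AOA. Vehicle 2 was the highest of its group, 0.49 above the other vehicle libraries on the log2 scale, and the groups did not overlap. The log2 fold change of Eed was 1.00 (SE 0.16, edgeR adjusted p = 9.2e-04), or 2.00-fold, and was 1.22 without vehicle 2. Suz12, the scaffold, was at 188, 196 and 183 CPM with vehicle and at 285, 358 and 347 CPM with AOA. All AOA libraries of Suz12 were above the vehicle libraries, which lay close together. Its log2 fold change was 0.80 (SE 0.14, edgeR adjusted p = 0.0014), or 1.74-fold.

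Per length, the order of the 9 genes changed. In CPM per kilobase of the gene length listed in the matrix, the vehicle means ran from Suz12 (43.2), Ezh1 (41.6) and Uhrf2 (39.9) through Ezh2 (32.9), Dnmt1 (28.6) and Eed (23.9) to Uhrf1 (10.2), Dnmt3a (6.53) and Dnmt3b (3.58). Among these vehicle levels, the library values of each gene from Suz12 to Eed overlapped those of the next, and from Eed to Dnmt3b they did not. With AOA the order of the means was Ezh2 (97.2), Dnmt1 (96.1), Uhrf1 (95.9), Suz12 (75.4), Eed (47.9), Uhrf2 (28.0), Ezh1 (15.1), Dnmt3a (6.20) and Dnmt3b (3.43). The first 4 of these overlapped with their neighbours, and from Suz12 downwards no neighbours overlapped. Ezh1 thus stood beside Suz12 with vehicle and below Eed and Uhrf2 with AOA, while Uhrf1 moved from below Eed to the level of Dnmt1.

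The ratio between paralogs was taken in each library from these levels per length, for 3 pairs. The ratio of Ezh2 to Ezh1 was 0.633, 1.03 and 0.760 with vehicle and 6.87, 6.22 and 6.24 with AOA. It was below 1 in vehicle 1 and 3, near 1 in vehicle 2 and above 6 in each AOA library, an 8.13-fold difference of the geometric means. Ezh1 and Ezh2 summed to 74.5 ± 1.61 CPM per kilobase with vehicle and 112 ± 6.47 with AOA (SD, n = 3 each), a 1.51-fold difference. Within that sum the share of Ezh2 went from 44.2% ± 6.06 to 86.6% ± 0.649.

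The ratio of Uhrf1 to Uhrf2 was 0.180, 0.377 and 0.231 with vehicle and 2.60, 3.63 and 4.03 with AOA, a 13.4-fold difference of the geometric means. Uhrf2 was the higher of the pair in each vehicle library and Uhrf1 in each AOA library. The ratio of Dnmt3a to Dnmt3b was 1.65, 1.71 and 2.10 with vehicle and 1.58, 1.85 and 1.93 with AOA, with overlap of the groups. In an exact two-sided permutation test over libraries, p was 0.1 for Ezh2 to Ezh1 and for Uhrf1 to Uhrf2, which is the smallest value that 3 against 3 libraries allow, and 0.9 for Dnmt3a to Dnmt3b. Adjusted over the 3 pairs by the Benjamini-Hochberg method these were 0.15, 0.15 and 0.9. Dnmt1 held 73.8% ± 3.01 of the summed per-length level of the 3 methyltransferases with vehicle and 90.6% ± 1.48 with AOA.

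**Figure D2:**
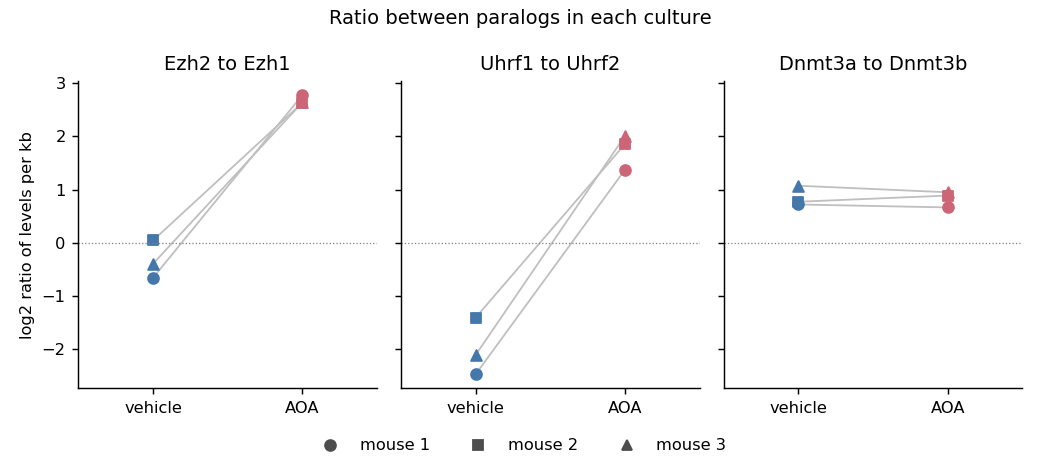
Log2 ratio of per-length levels (y axis) of Ezh2 to Ezh1, Uhrf1 to Uhrf2 and Dnmt3a to Dnmt3b in vehicle and AOA cultures (x axis). Points are single libraries, lines join the cultures of 1 mouse, and the dotted line marks equal levels. The first 2 ratios rise in all 3 mice by 2.59 to 4.12 log2 units, and that of Dnmt3a to Dnmt3b stays between 0.66 and 1.07.

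Since Dnmt1 and Uhrf1 work at the replication fork, each gene was also set against replication genes. All 12 genes of that list, among them the helicase subunit Mcm2, the sliding clamp Pcna and the ribonucleotide reductase subunit Rrm2, were called higher with AOA, with a median log2 fold change of 2.37 against -0.02 over all genes. The call of the licensing factor Cdt1, with a log2 fold change of 0.58, was lost without vehicle 3, AOA 1, AOA 2 or AOA 3, at adjusted p from 0.052 to 0.11. The mean log2 CPM of the list rose by 2.35 and by 2.49, 2.16 and 2.39 in mice 1 to 3. Relative to this mean, Uhrf1 alone among the 9 genes was higher with AOA in all libraries, by 0.89 on the log2 scale, as were 0.816% of all genes. The other 8 were lower in all AOA libraries than in all vehicle libraries, as were 95.0% of all genes. Among these 8, Dnmt1 and Ezh2 were nearest to the replication genes, with differences of -0.64 and -0.78. Eed and Suz12 followed at -1.33 and -1.55, Dnmt3b and Dnmt3a at -2.41 and -2.43, Uhrf2 at -2.85 and Ezh1 at -3.80. Each of the 9 differences had an exact permutation p of 0.1, the smallest possible here.

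**Figure D3:**
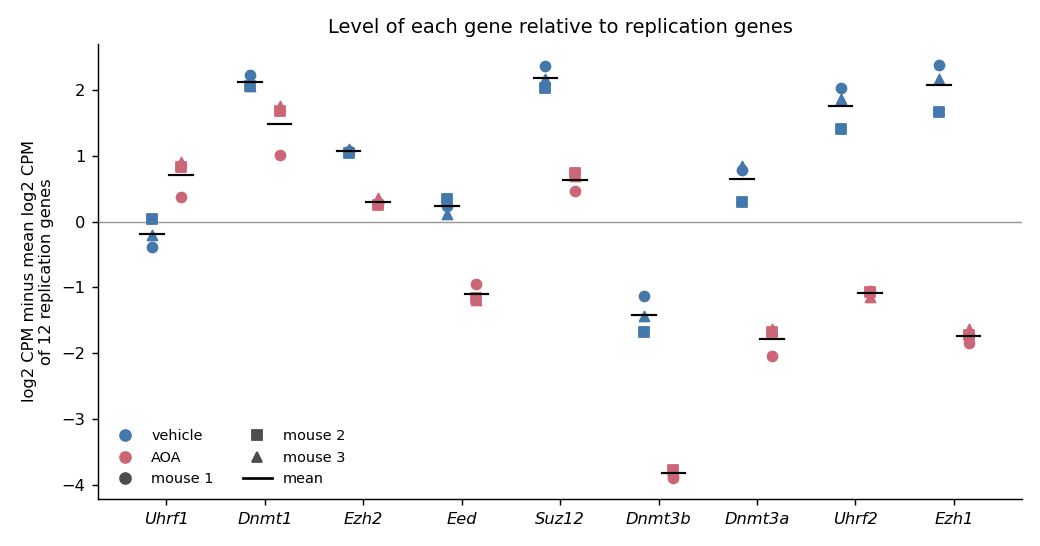
Log2 CPM of each of the 9 genes minus the mean log2 CPM of 12 replication genes (y axis), by gene (x axis, ordered by the difference between the groups). Points are single libraries with mouse numbers by shape, and black lines are the means of 3 libraries. Uhrf1 is the only gene whose AOA points all lie above its vehicle points, and the distance downwards grows from Dnmt1 (-0.64) to Ezh1 (-3.80).

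The genes are at the following places in the GRCm38.p6 assembly (RefSeq), the build that the submitters' processing notes name as mm10. Dnmt1 is at chr9:20907206-20959888, Dnmt3a at chr12:3801559-3914443, Dnmt3b at chr2:153649411-153687730, Uhrf1 at chr17:56303337-56323486 and Uhrf2 at chr19:30030430-30093726. Ezh1 is at chr11:101191115-101226463, Ezh2 at chr6:47530274-47595270, Eed at chr7:89954654-89980976 and Suz12 at chr11:79993106-80034123. Other genes overlap 3 of the members, namely Mir7081 in Dnmt1, Dnmt3aos and Gm31623 in Dnmt3a, and F830010H11Rik in Ezh2. The library kit marks strand, but the sources used here do not say how the counting treated it, so reads of an overlapping gene on the other strand may have entered these counts.

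Because replication genes, all called higher with AOA, are known as targets of E2F factors, the RefSeq promoter windows (250 bases before to 50 after a start) were searched for E2F words. The words were TTTCCCGC, TTTGGCGC, TTTCGCGC and TTTGCCGC on either strand. They were found in 4 of the 14 windows of the 9 genes, in 5 of the 11 windows of the replication list, in 4.14% of the 11991 windows of genes tested and in 2.26% of all 32851 windows. The 4 members with a word were Uhrf1, Dnmt1, Ezh2 and Suz12, all called higher, and the words overlapped no CCAAT or CHR match. The sites are shown with the word in capitals and 10 bases or fewer on each side, 5′ to 3′ on the strand of the gene.
Uhrf1, 185 bases before its second start, chr17:56304118-56304145, plus strand: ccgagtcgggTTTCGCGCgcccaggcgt
Dnmt1, 219 bases before the third start, chr9:20952825-20952852, minus strand, word reversed: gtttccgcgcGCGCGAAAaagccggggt
Dnmt1, 34 bases after the third start, chr9:20952574-20952600, minus strand: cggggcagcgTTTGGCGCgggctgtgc
Ezh2, 4 bases after its start, chr6:47595010-47595037, minus strand: ggttgctgcgTTTGGCGCtcggtccggt
Suz12, 219 bases before its start, chr11:79992877-79992904, plus strand: gacccctcatTTTCCCGCgaattcagtt
The Uhrf1, Dnmt1 and Ezh2 sites lie inside the annotated span of the gene, and the Suz12 site lies before it. A match of letters is a description of these windows and not a bound site.

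For a gene that rose and a gene that fell, both PRC2 subunits, the 250 bases before the start are given in full. The Suz12 stretch carries its E2F word in capitals. It also holds, unmarked, a CHR match 203 bases and a CCAAT match 61 bases before the start. The Ezh1 stretch holds none of the E2F, CHR or CCAAT words.
Suz12, chr11:79992856-79993105, plus strand: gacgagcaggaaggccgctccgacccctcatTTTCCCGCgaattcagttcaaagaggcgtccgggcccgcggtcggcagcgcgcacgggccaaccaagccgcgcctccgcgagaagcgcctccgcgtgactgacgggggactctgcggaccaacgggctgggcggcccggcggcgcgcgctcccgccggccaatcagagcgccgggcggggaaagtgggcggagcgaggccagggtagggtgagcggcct
Ezh1, chr11:101226464-101226713, minus strand: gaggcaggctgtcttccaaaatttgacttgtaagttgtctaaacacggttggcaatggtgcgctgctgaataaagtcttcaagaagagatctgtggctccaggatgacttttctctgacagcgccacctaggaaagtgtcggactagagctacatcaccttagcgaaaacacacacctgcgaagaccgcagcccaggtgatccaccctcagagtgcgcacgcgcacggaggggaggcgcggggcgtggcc
The CHR words TTTGAA and TTCGAA, which mark many genes of late cell cycle, were in 4 of the 14 windows of the 9 genes against 14.1% of the windows of genes tested. CCAAT was in 7 of 14 against 37.7%.

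The other factors of the same machinery were taken from lists. Of 6 partners of the methyltransferases with a row in the matrix, 4 were called higher and 1 lower, against 26.2% and 26.8% of all genes tested. The median of the partners' log2 fold changes was 2.01. The risen partners were Pclaf (3.47), a clamp-binding protein whose modified form also recruits Dnmt1, Cdca7 (3.18) and Hells (1.86), which form a chromatin remodeller needed for methylation of heterochromatin, and Lig1 (2.16), the DNA ligase of the lagging strand and a binding partner of Uhrf1. Hells is named to complete the complex with Cdca7. Zbtb24, an activator of Cdca7, had a log2 fold change of -0.40 and lost its call without vehicle 1, vehicle 3, AOA 2 or AOA 3, at adjusted p from 0.089 to 0.14. Usp7, a deubiquitinase that binds Dnmt1 and Uhrf1, had 0.28 and was not called. Without AOA 1, 5 of the 6 partners were called higher, Usp7 included. The same held with the trend of each library with gene length removed.

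The enzymes that undo methylation and the proteins that read it held no gene called higher. Of the 3 TET dioxygenases, which oxidise methylcytosine, Tet2 had a log2 fold change of -0.47 and Tet3 of -0.38, and both were called lower. Both calls were lost when any of vehicle 1, vehicle 3, AOA 2 or AOA 3 was left out, at adjusted p from 0.052 to 0.16, that of Tet3 also without vehicle 2 at 0.051 and with mouse as a block at 0.061. With the trend of each library with gene length removed, neither Tet2 nor Tet3 was called, at adjusted p of 0.24 and 0.52. Tet1 was not called at a log2 fold change of -0.01. Of 7 genes for methyl-CpG binding proteins 3 were called lower, against 26.8% of all genes tested. Among the 3 were Zbtb38 (-1.33) and Zbtb4 (-0.55), and the median of the 7 was -0.19. Without vehicle 3 only 1 was called lower, and without vehicle 1 there were 2 called lower and 1 called higher. The call of Zbtb4 was lost without vehicle 3 at adjusted p of 0.053.

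**Figure D4:**
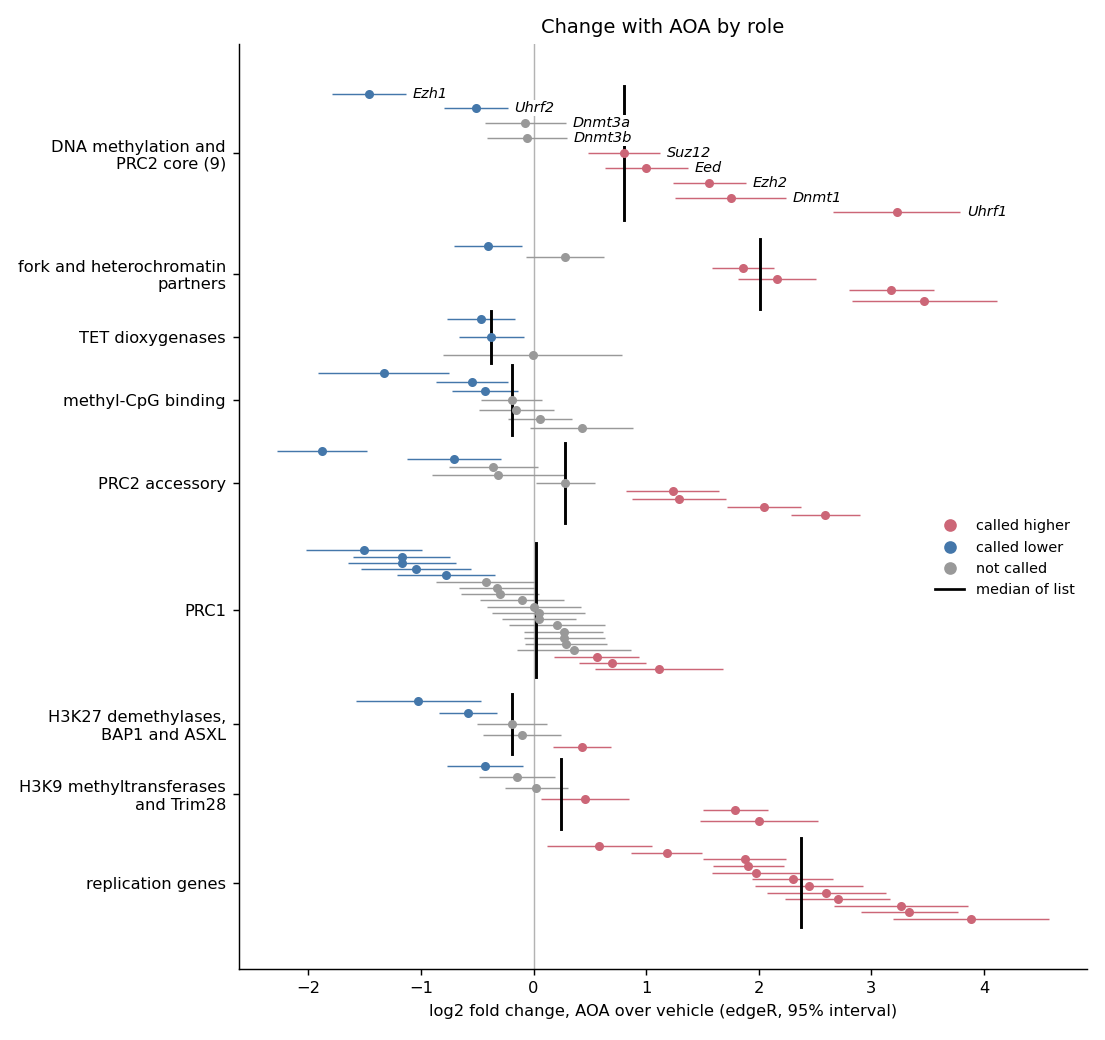
Log2 fold change of AOA over vehicle with 95% interval (x axis) for each tested gene of 9 groups (y axis), coloured by edgeR call, with a black line at the median of each group. The 9 genes spread from Ezh1 (-1.46) to Uhrf1 (3.23). The methyltransferase partners (median 2.01) and replication genes (2.37) lie to the right, and PRC1 is centred near 0 (0.02).

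PRC2 works with further subunits that set where it binds. Of 9 such genes 4 were called higher, 2 were called lower and 3 were not called, and the median was 0.28 on the log2 scale. Of all genes tested, 26.2% were called higher and 26.8% lower. Phf19 (2.59) and Phf1 (-1.88), paralogs that bind the H3K36 methyl mark, went opposite ways. Phf19 was at 11.4, 11.8 and 10.5 CPM with vehicle and at 64.3, 67.4 and 71.3 CPM with AOA, and Phf1 at 74.4, 59.5 and 59.3 CPM with vehicle and at 20.6, 14.2 and 17.7 CPM with AOA. Neither gene's groups overlapped. Mtf2, the other paralog, was not called at 0.28. The histone-binding subunits Rbbp7 (2.05) and Rbbp4 (1.29) and the elongin-binding Epop (1.24) rose, and Jarid2 (-0.70), which helps PRC2 to its targets, fell. Aebp2 at -0.36 and Lcor at -0.31 were not called. Rbbp4 and Rbbp7 also belong to other chromatin complexes, and Epop is named to complete the count.

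PRC1 adds ubiquitin to histone H2A and reads the PRC2 mark. Of its 20 genes 3 were called higher, 5 lower and 12 not, where 26.2% of all genes tested were called higher and 26.8% lower, and the median was 0.02. The E3 ligase genes Ring1 (-0.30) and Rnf2 (-0.10) were not called. Among the subunits that define PRC1 variants, Kdm2b (-1.50), Cbx7 (-1.17), Pcgf2 (-1.17) and Pcgf1 (-1.05) fell. Kdm2b, which brings PRC1 to CpG islands, was at 166, 92.0 and 160.3 CPM with vehicle and at 42.2, 56.7 and 49.0 CPM with AOA. Vehicle 2 was the lowest vehicle library, and it was still above each AOA library. Scmh1 (1.12), Phc3 (0.70) and Pcgf6 (0.56) rose, though the call of Pcgf6 was lost without vehicle 3 or AOA 1, at adjusted p of 0.071 and 0.053. Pcgf1 is named beyond the rule of 3 genes per direction.

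Of 5 genes for the removal of the Polycomb marks, 1 was called higher and 2 lower, against 26.2% and 26.8% of all genes tested. The H3K27 demethylase genes Kdm6b (-1.02) and Kdm6a (-0.59) were called lower, and Bap1 (0.43), which takes ubiquitin off H2A, was called higher. Its cofactors Asxl1 (-0.10) and Asxl2 (-0.19) were not called. Of the 6 genes for the related H3K9 methylation, Suv39h2 (2.00) and Suv39h1 (1.79), which write the heterochromatin mark, rose. Suv39h1 was at 39.4, 41.9 and 41.4 CPM with vehicle and at 127, 149.9 and 148 CPM with AOA. Trim28 (0.46) was called higher at adjusted p of 0.049 and lost the call without any library but AOA 1, at adjusted p from 0.072 to 0.17, and with mouse as a block, at 0.071. Ehmt2 (-0.43) was called lower and lost the call without vehicle 1, vehicle 3, AOA 1 or AOA 2, at 0.054 to 0.14. Ehmt1 (0.03) and Setdb1 (-0.15) were not called.

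For each of the 9 genes the 3 genes nearest in profile were sought among 8762 genes of at least 10 CPM on average, by the root mean square (RMS) difference of centred log2 CPM over the 6 libraries. For Uhrf1 these were E2f8 (0.105), Clspn (0.166) and Cdc45 (0.201). For Dnmt1 they were Anp32e (0.130), Nup160 (0.135) and Zranb3 (0.137), and for Ezh2 they were Cnot9 (0.052), Oat (0.061) and Usp1 (0.065). Ezh1 was nearest to 4932438A13Rik (0.063), Agtrap (0.065) and Zer1 (0.065). Eed was nearest to Utp18, Pnp and Strap (0.039 to 0.043), and Suz12 to Ints7, Casp8ap2 and Calu (0.020 to 0.043). Uhrf2 was nearest to Eif3f, Tcf25 and Pmm2 (0.036 to 0.050), Dnmt3a to Zfp362, Ilrun and Crim1 (0.042 to 0.051), and Dnmt3b to Msl2, Thoc2 and Prpf4b (0.029 to 0.041). None of the 9 was among the nearest genes of another. The points behind each likeness are the same 6 libraries in 2 treatments, and the nearest genes of Uhrf1 had log2 fold changes of 3.14 to 3.21, those of Ezh2 of 1.53 to 1.64 and those of Ezh1 of -1.52 to -1.39.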

How the data were processed

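RNA of CD8+ T cells of 3 mice, each cultured with vehicle and with AOA, was sequenced as paired-end reads from stranded messenger RNA libraries. STAR, left at its defaults, was the aligner, and the deposited values are raw counts per gene from reads that mapped once, beside a gene length. The submitters' processing notes also list bcl2fastq, featureCounts, DESeq2 and mm10. The sources used here do not give versions, annotation, strand setting or gene filter. Counts were tested in R 4.3.3 with edgeR 4.0.16: filterByExpr at a minimum count of 10, TMM, robust quasi-likelihood fit without a block, Benjamini-Hochberg adjustment and a threshold of 0.05, over all 6 libraries. Log2 values have a prior count of 2. SE is the log2 fold change over the root of F, and intervals are 95%. The labels give each library a mouse donor, numbered 1 to 3 in both groups, and these donors pair the libraries. Within mice 1 to 3 departures of same-numbered libraries from the mean of their group had, over genes that are not independent, r of 0.087, 0.189 and 0.194. Replicates differed beyond sampling noise (chi-square per gene from 9.93 to 70.1) and were counted separately.

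Alternatives were voom in limma 3.58.1, DESeq2 1.42.0, scaling by median of ratios or by total counts, other filters, mouse as a replicate block, a fold threshold, other prior counts or comparison list, and each library left out. Chosen after seeing the data was removal of each library's trend with gene length. The members, lists, motif words and tests were chosen with earlier results of these data known. From each list up to 3 called genes per direction with the largest change are named, plus any that complete a complex. Genes named only as not called, or as library values, were chosen after their values were seen. Intervals of single values cover the spread between 3 cultures. Exact permutation tests were two-sided. Steps were tested on simulated data. Promoter windows came from RefSeq tables of GRCm38.p6, which held all 9 members. The 3 listed genes Dnmt3l, Tdg and Ezhip were not analysed here, and a few list genes are counted but their own values are not reported here.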

Additional observations from a re-analysis of the deposited data

How the results depend on the processing

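The calls of the 7 called members kept their direction and stayed below 0.05 in all 105 fits (7 genes under 15 alternatives), the replicate block included, which changed no member's call. The highest adjusted p was that of Uhrf2, 0.046 without vehicle 3. The counts of 5 raised and 2 lowered members were the same with each library left out (5 to 5 and 2 to 2). With a log2 fold change of at least 1 required as well, 4 members were raised, 1 was lowered and 3081 genes were called in all, against 6233. Over the libraries left out, the number called ran from 4952 to 6796. The uncalled log2 fold changes near 0 changed sign. Dnmt3a ran from -0.15 to 0.059 over libraries left out, with 0.044 without vehicle 3 and 0.059 without AOA 1, and was 0.146 with the length trend removed and 0.153 with the block too. Dnmt3b ran from -0.087 to 0.014, with 0.014 without vehicle 1, 6.8e-04 without AOA 1, and was 0.0091 and 0.0099 in the length-trend fits. The difference between AOA and vehicle in the log2 ratio of Dnmt3a to Dnmt3b, -0.02, ranged from -0.088 to 0.088 over libraries left out, with 0.088 without vehicle 3 and 0.064 without AOA 1. The cause was not tested. With the length trend removed, the calls of Zbtb24, Tet2, Tet3 and Cdt1 were lost, at adjusted p of 0.055, 0.24, 0.52 and 0.052. That of Trim28 was also lost with voom (0.051) and the 10 CPM filter (0.057), and that of Snrpn with DESeq2 (0.055). With differences taken within mice as a replicate block, the Ezh2 to Ezh1 and Uhrf1 to Uhrf2 ratios had an exact sign-flip p of 0.25, the smallest for 3 pairs. The number of members that rose less than the replication genes was 8 under each alternative run. Counts of 209 or more reads per library lay behind every member, and how much of each member's spread between libraries is counting error was not computed.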

Other observations

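Genes that DNA methylation or Polycomb are known to keep silent were mostly without a row in the matrix. Of 12 germline genes listed, 1 had a row: Brdt, a testis bromodomain gene, was at 8.02, 2.98 and 6.84 CPM with vehicle and at 1.52, 1.27 and 1.26 CPM with AOA, a log2 fold change of -2.13 (edgeR adjusted p = 0.0017). Of 12 imprinted genes 5 had a row. Zrsr1 had a log2 fold change of -1.20 and Snrpn of -1.23, and both were called lower. Snrpn was at most 1.65 CPM and lost its call without vehicle 3 or AOA 3, at adjusted p of 0.061 and 0.076. Of 15 developmental Polycomb target genes 2 had a row. Hoxb4 was not called at a log2 fold change of 0.00. Cdkn2a, which encodes cell cycle inhibitors and is a known target of Polycomb silencing, was at 6.59, 24.4 and 11.0 CPM with vehicle and at 4.64, 4.23 and 3.18 CPM with AOA. Its log2 fold change was -1.80 (edgeR adjusted p = 0.0069), and -1.10 without vehicle 2, its highest library.

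Genes of naive and memory CD8+ T cells, some of them known to be silenced by Dnmt3a and Ezh2 in effector cells, had 1 of 10 called higher, Id3 (1.91), and 4 lower, namely Il7r (-4.46), Bach2 (-1.66), S1pr1 (-1.03) and Lef1 (-0.79), the last named to complete the count. Of all genes tested, 26.2% were called higher and 26.8% lower. Among these 10 naive and memory genes the number called higher was 2 without vehicle 3. The number called lower among them was 7 without vehicle 2 and 2 without AOA 1. The call of S1pr1 was lost without AOA 1 at adjusted p of 0.054, and that of Lef1 without vehicle 1, vehicle 3, AOA 1 or AOA 3 at 0.074 to 0.13. Tcf7 was not called, at 1585, 525 and 1642 CPM with vehicle and at 709.9, 939.9 and 906 CPM with AOA, where vehicle 2 was the lowest of all. Of 8 effector fate genes 4 were called lower and none higher, with Klrg1 (-5.43, or -3.66 without vehicle 2), Prdm1 (-2.31) and Id2 (-1.20, or -0.65 without vehicle 2) leading. The number called lower was 6 without vehicle 3, 6 with mouse as a block, and 3 without AOA 2 or without AOA 3. The call of Id2 was lost without AOA 2 or AOA 3, at adjusted p of 0.055 and 0.060. All 8 proliferation genes of G2 and mitosis were called higher, with a median log2 fold change of 2.75.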
